A study of Mus musculus with 8 samples.

Results

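The subject is a set of 1-kb tiles on chromosomes 1 to 19 of the mouse genome that were largely unmethylated in naive T cells and largely methylated in resting B cells. Tiles were built from the CpGs listed in all 4 deposited tables and were tested where each table gave 5 or more of these CpGs and no fewer than 20 reads. A tile was a member when its methylation level, the share of reads at its CpGs that were methylated, lay under 25% in both T cell libraries and at 75% or more in both B cell libraries. Of 1497668 tested tiles, 1759 were members, or 0.117%, and the opposite set, under 25% in both B cell libraries and at 75% or more in both T cell libraries, held 338. Because the members were chosen by these levels, the difference between T and B cells at them is given as a description, with no test.

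DNA methylation had been profiled genome-wide by oxidative bisulfite sequencing (WGoxBS), a method where oxidation before bisulfite treatment is meant to make 5-hydroxymethylcytosine read like an unmodified base, so that the remaining signal is 5-methylcytosine. The study's methods describe the protocol as reading both forms, so a level may include 5-hydroxymethylcytosine. The same methods put the amount of that form far below that of 5-methylcytosine in these data sets. The cells came from spleens of C57BL/6J mice, an inbred strain, aged 6 to 8 weeks, and the cells of several mice were pooled for each sample. The 4 groups were female CD43- B cells, female CD4+CD62L+ T cells, male CD43- B cells and male CD4+CD62L+ T cells, the T cells being further sorted as CD44 low and CD25 negative. The labels name 8 samples, but both samples of a group point to the same table, so each group was treated as 1 library without replicates. The name of each table carries the number of only 1 of its samples, so whether it holds 1 sample or both is unknown.

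Autosomal reads at CpGs numbered between 275056147 and 340853988 per library, with a median of 14 to 17 reads per CpG. The male B cell library was the shallowest. Where 2 values are given for a cell type, the first is from females and the second from males. A level is a mean over all cells and both alleles of a pool, and a smaller share of cells carrying a mark cannot be told apart from a lower level in each cell.

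Mammalian genomes are methylated at most CpGs, and the exceptions are mainly CpG islands at gene starts and the enhancers that a cell type uses. CpG-poor enhancers lose methylation when transcription factors and the demethylating enzymes they bring act on them during development, so that low methylation outside islands marks regulatory elements of a lineage. T cells are distinguished from B cells by the T cell receptor with its CD3 chains, by the kinases and adaptors that carry its signal, and by transcription factors such as T cell factor 1 (Tcf7), Lef1, Bcl11b and Satb1.

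The windows below show what such a tile looks like at the level of bases. They were taken from the 10 tiles with the largest difference between B and T cells, 1 per gene, among those without an exon. Each is the 300-base stretch of its tile with the most CpGs listed in all tables, written 5′ to 3′ on the plus strand of GRCm38 as given by RefSeq, with the measured CpGs in capitals. Lower case does not mark repeats here, and the repeat content of the windows was not counted. Those of Tcf7 and Grap2 are shown for their many CpGs, and the window beside the T cell receptor beta constant gene Trbc2 is added for its locus.
Tcf7, chr11:52278386-52278685: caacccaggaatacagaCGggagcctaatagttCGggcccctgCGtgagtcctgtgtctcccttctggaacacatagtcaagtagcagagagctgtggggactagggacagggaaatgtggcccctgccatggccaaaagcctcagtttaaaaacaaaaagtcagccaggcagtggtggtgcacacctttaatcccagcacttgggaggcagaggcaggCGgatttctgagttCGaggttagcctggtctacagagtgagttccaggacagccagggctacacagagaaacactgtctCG
Grap2, chr15:80574679-80574978: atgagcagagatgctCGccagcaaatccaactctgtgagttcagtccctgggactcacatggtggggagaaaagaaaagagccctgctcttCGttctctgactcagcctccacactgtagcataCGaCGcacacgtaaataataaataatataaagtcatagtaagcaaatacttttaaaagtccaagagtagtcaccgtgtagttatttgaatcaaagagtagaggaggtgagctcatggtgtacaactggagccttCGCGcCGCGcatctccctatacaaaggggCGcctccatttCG
Trbc2, chr6:41545561-41545860: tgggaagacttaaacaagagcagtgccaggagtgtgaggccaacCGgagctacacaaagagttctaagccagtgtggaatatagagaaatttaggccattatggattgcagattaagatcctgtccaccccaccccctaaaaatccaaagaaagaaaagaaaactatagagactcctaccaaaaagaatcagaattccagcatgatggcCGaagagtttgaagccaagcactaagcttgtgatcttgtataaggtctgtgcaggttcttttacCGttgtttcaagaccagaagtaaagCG

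In the Tcf7 window, which lies in an intron of the gene for T cell factor 1, the 6 CpGs were methylated at 95.3% in female B cells (95% Wilson interval 90.1 to 97.8%, 127 reads) and 96.7% in male B cells (88.8 to 99.1%, 61 reads). No methylated read was found there in female T cells (155 reads, upper limit 2.42%) or in male T cells (128 reads, upper limit 2.91%). The 10 CpGs of the Grap2 window, in an intron of the gene for the adaptor Gads, stood at 97.3% and 99.2% in B cells and at 2.04% and 0% in T cells. The 4 CpGs of the Trbc2 window, upstream of the annotated start, stood at 98.5% and 100% in B cells and at 0% in both T cell libraries. All 3 windows lie outside exons, and the intervals cover counting error only.

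Over all members the level had a median of 88.9% and 89.2% in B cells, against 13.1% and 13.2% in T cells. The medians of all tested tiles were 91.5% in both B cell libraries and 90.6% and 90.3% in T cells. The choice of members fixes where they lie against these medians. The median difference, B minus T, was 75.2 points with quartiles of 69.0 and 81.9 and a range of 52.0 to 97.8. Full loss of methylation was the exception. In both T cell libraries 259 members (14.7%) lay under 5% and 524 (29.8%) under 10%, whereas 643 (36.6%) lay at 90% or more in both B cell libraries. At the level of single CpGs the T cell pattern was more split than the tile levels show: of the 19304 CpGs used, 49.1% had no methylated read in female T cells and 49.6% in male T cells, while 4.38% and 4.24% stood at 75% or more.

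The thresholds cut through a continuum. Just inside lay tiles of Rasgrp1, Stk4 and Rapgef2, each at the upper threshold in female B cells. Just outside lay tiles assigned to Zfp281, Tank and Bach2, each at the lower threshold in 1 T cell library. Within 2 points of a threshold there were 299 members, and 417 other tiles missed membership by no more than that.

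Some CpGs in the member tiles were not used in choosing them, because they were not listed in all 4 tables. At these CpGs 87.9% of 10331 reads were methylated in female B cells and 89.6% of 7036 reads in male B cells. In T cells the share was 30.7% of 5790 reads in females (95% Wilson interval 29.5 to 31.9%) and between 28.9% and 31.1%, by the same interval, of 6460 reads in males. A gap between B and T cells was thus also seen at these CpGs, and the T cell levels were above those at the CpGs the choice had used. This is no independent check of the choice. The CpGs lie in the chosen tiles, and a sequenced read over them can also cover CpGs that the choice used. They also differ between the libraries.

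Low methylation in T cells alone did not make a member. Of the 45264 tested tiles under 25% in both T cell libraries, 77.8% were also under 25% in both B cell libraries and 3.89% were members. The balance depended on CpG density. Among T cell low tiles with 5 to 7 CpGs, 14.6% were members, among those with 20 to 39 CpGs 0.871%, and of the 15941 with 40 or more CpGs, the densest class, 1 was a member. That tile covers an exon of Kcnn4, which encodes a calcium-activated potassium channel (chr7:24377001-24378000, 51 CpGs). It stood at 80.5% and 78.7% in B cells and at 2.63% and 6.67% in T cells.

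The median tile level in T cells rose with distance from the members, while that in B cells stayed near its level over all tested tiles. The 2344 distinct tested tiles touching a member had median levels of 92.1% and 92.2% in B cells and of 58.1% and 57.7% in T cells. The T cell median in females was 75.1% at 2 kb from the members, 81.7% at 5 kb and 87.5% at 20 kb, and the male values differed by less than 1 point. B minus T was 20 points or more in 56.8% of the touching tiles and still in 17.1% of the tiles at 20 kb, against 2.39% of all tested tiles. The borders of a member tile are therefore often not the borders of the low region, since in many cases CpGs next to it were partly unmethylated as well. In the other touching tiles B minus T was under 20 points. Tiles under 25% in all 4 libraries made up 4.18% of the touching tiles, 7.08% of those at 2 kb and 2.35% of all tested tiles. Levels over all reads, in which tiles with many CpGs weigh more than in a median over tiles, gave another profile. In female B cells they were 82.2% in the first 250 bp beside a stretch, 68.9% between 1750 and 2000 bp and 77.8% just before 20000 bp, against 79.6% of all reads in tested tiles. In female T cells they were 41.1%, 51.4% and 68.6%, against 77.8%.

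**Figure D1:**
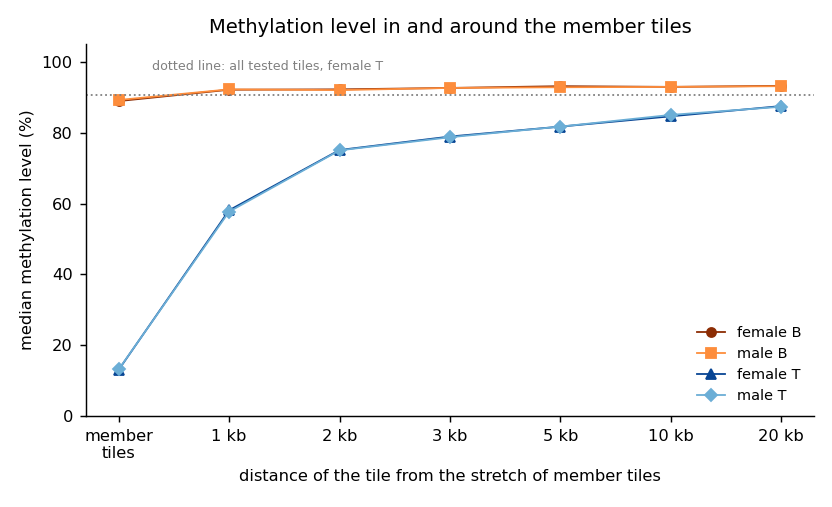
Median methylation level (y axis, percent) of the 1759 member tiles and of other tested tiles at 1, 2, 3, 5, 10 and 20 kb from a stretch of members (x axis, categories not to scale), 1 line per library; the dotted line marks the median of all tested tiles in female T cells. T cells rise from a median of 13.1% (female) in the members, a value fixed by the way they were chosen, to 58.1% at 1 kb and 87.5% at 20 kb, and B cells stay between 88.9% and 93.2%.

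Joined where they touch, the 1759 members formed 1456 stretches. Of these, 1274 were single tiles and 182 held 2 or more, with 485 members (27.6%) between them. Single tiles and pairs made up 1403 of the stretches, and 12 stretches reached 5 kb or more. A stretch also ended where the next tile was not tested, so a single tile need not be an isolated low region. Joined across gaps of up to 2 kb, the members formed 1341 stretches. On a wider scale, 45.7% of members had another member within 10 kb, touching ones included, and 59.2% within 50 kb. The median gap between neighbouring stretches was 327000 bp. These shares were not set against those of other tiles.

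The longest stretch ran for 25 kb from the J segment Traj22 into the constant gene of the T cell receptor alpha chain (Trac, chr14:54197001-54222000), and so covered part of the J segments and part of the constant gene. Over its 296 CpGs the level was 93.7% and 93.2% in B cells and 7.96% and 6.98% in T cells. Its 25 tiles ranged from 83.9% to 97.9% in B cells and from 0.645% to 19.4% in T cells, without a gap. At this locus V(D)J recombination deletes J segments from the chromosomes of T cells, so T cell reads come only from the copies that remain. Read depth relative to the median tile of each library, T over B, had a median of 0.837 over these tiles, against 1.01 over all tested tiles and 0.955 over all members. The stretch in Bcl11b, a gene that does not recombine, had a lower median of 0.776. The part of this depth difference in the levels was not tested.

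**Figure D2:**
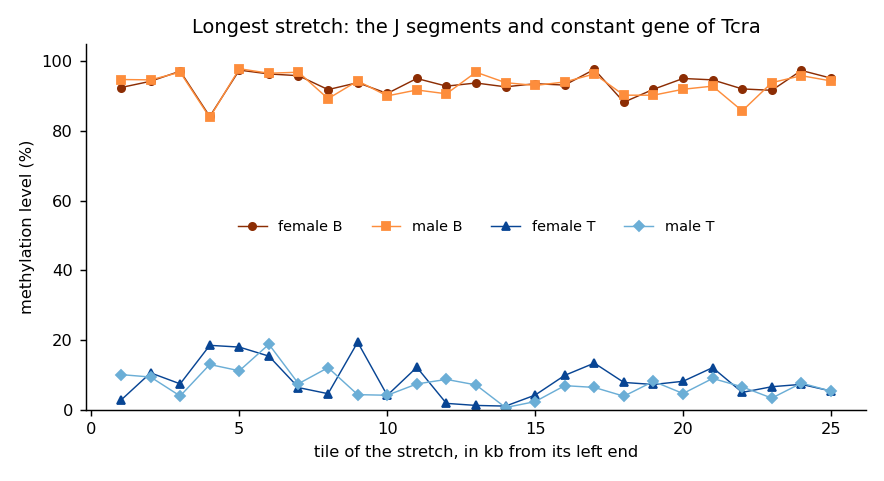
Methylation level (y axis, percent) of each of the 25 tiles of the longest stretch (x axis, kb from its left end) in the 4 libraries. All B cell points lie at 83.9% or above and all T cell points at 19.4% or below, as the choice of members requires of each tile.

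Other long stretches lay in genes of transcription factors, of the CD3 complex and of signalling proteins. A stretch of 9 kb lay towards the 3′ end of Bcl11b, the factor that fixes T lineage identity (chr12:107920001-107929000), with levels of 88.4% and 87.9% in B cells and 7.31% and 6.95% in T cells. Satb1, a chromatin organizer of the T lineage, carried 1 of 7 kb (chr17:51803001-51810000) at 94.7% and 93.6% in B cells and 1.70% and 2.13% in T cells. The stretch in Ets1, an Ets family factor of lymphocytes, was also 7 kb long (chr9:32711001-32718000) and stood at 85.7% and 85.6% in B cells and at 1.30% and 1.13% in T cells. Shorter, but lower in T cells, was a stretch of 6 kb in Tcf7 (chr11:52275001-52281000), where 0.189% of reads were methylated in female T cells and 0.0699% in male T cells. Another stretch of 6 kb joined the starts of Cd3g and Cd3d, neighbouring genes of the CD3 complex (chr9:44977001-44983000), with 1.14% and 1.35% in T cells against 89.9% and 91.8% in B cells. Stretches of 5 kb lay in Cd247, Grap2, Fyb and Lef1.

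Each member was assigned to the protein-coding gene whose body held most of it, T cell receptor segments included, or else to the gene with the nearest start. The members fell to 982 genes, and 1302 of them lay in the body of their gene. A single member was all that 690 genes had, while 17 genes with 10 or more accounted for 284 members. Of the 20 genes with the most members, 19 are described. The last place was tied at 8 members, and Inpp4b took it over 4933412E24Rik by its larger mean difference, B minus T.

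Transcription factors led. Lef1, the partner of T cell factor 1, had 34 members, of which 33 lay between chr3:131114001 and chr3:131201000, a span of 87.0 kb. Their levels had a median of 92.9% in female and 91.9% in male B cells and of 12.1% and 10.5% in T cells. Of the tested tiles touching the Lef1 body, 29.5% were members. Satb1 had 33 members, of which 21 touched its body, with T cell medians of 3.56% in females and 1.67% in males. Ets1 had 28, of which 22 touched its body, with T cell medians of 3.73% and 3.41%, and Bcl11b 19 with 6.37% and 5.91%. Tcf7 had 15, with the lowest T cell medians of these genes, 1.47% in females and 0.382% in males. Of the Tcf7 members 12 touched its body, where they made up 37.5% of the tested tiles. Ikzf1, which encodes Ikaros, a factor of both lymphocyte lineages, had 14 with T cell medians of 12.4% and 13.4%. B cell medians of these 6 genes lay between 85.3% and 92.9%.

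The next genes encode receptors, kinases, adaptors and phosphatases. Cd247, which encodes the zeta chain of the receptor complex, had 18 members, with T cell medians of 10.6% in females and 9.78% in males. Prkcq, which encodes protein kinase C theta, had 14, with T cell medians of 14.6% and 10.8%. Ptprc, which encodes the phosphatase CD45 found on all lymphocytes, also had 14, with T cell medians of 10.7% and 4.94%. The costimulatory receptor gene Cd28 and Grap2 had 12 each, the adaptor gene Fyb 11 and the receptor gene Cd5 9. Of the Cd28 members 7 touched its body, and of the Cd5 members 4. Inpp4b, which encodes a phosphoinositide phosphatase, had 8 within a span of its large body from chr8:81761001 to chr8:81786000, where they made up 2.61% of the tested body tiles.

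The remaining 5 genes are given last. Ugcg, which encodes glucosylceramide synthase, had 11 members and 31.2% of the tested tiles touching its body were members. The ubiquitin ligase gene Znrf1 had 11 as well, and Prkch, which encodes protein kinase C eta, had 10. All members of 3110018I06Rik and Kcnh8, and some members of other genes such as Satb1, were assigned by the nearest start. All 14 members of 3110018I06Rik lay outside it, between chr12:107047001 and chr12:107730000, on the side of the end of Bcl11b, whose body begins at position 107910403. None of the 9 members of the potassium channel gene Kcnh8 touched its body, and they lay at chr17:52278001-52470000, in the interval between the starts of Satb1 and Kcnh8. In both intervals no statement about the target gene can be made from methylation alone.

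**Figure D3:**
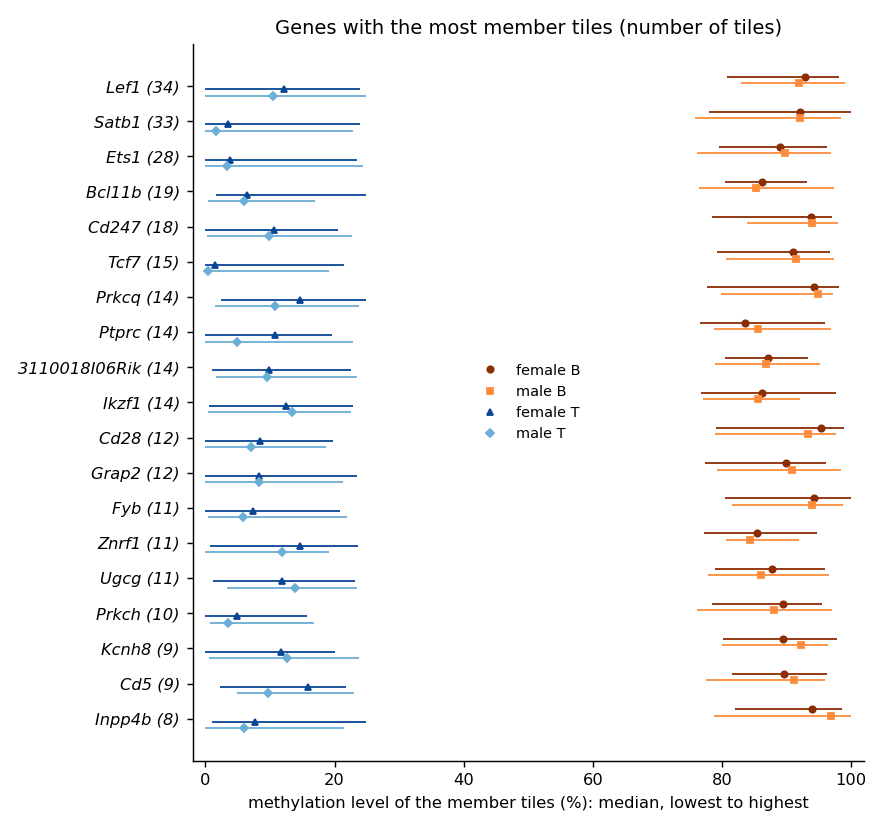
Methylation level (x axis, percent) of the member tiles of 19 of the 20 genes with the most members (y axis, number of tiles in parentheses) in the 4 libraries; symbols are medians and lines run from the lowest to the highest tile. The empty range between 25% and 75% is set by the choice of members, and the T cell medians run from 0.382% at Tcf7 to 15.9% at Cd5.

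Tiles with the largest differences were at Satb1, Inpp4b, Trbc1, Cd28, Tox, Chchd3, Trbc2, Grap2 and Tcf7. Those of Satb1, Inpp4b, Cd28 and Tox held 5 CpGs and those of Trbc1 and Chchd3 6, against a median of 10 over all members. In every library their reads were below the member median, so counting error is larger at them. The Trbc2, Tcf7 and Grap2 tiles held 8, 9 and 17 CpGs. At the Cd28 tile (chr1:60747001-60748000, an intron) female and male B cells stood at 97.0% and 97.6% and neither T cell library had a methylated read among 39 and 48 reads. At the Inpp4b tile (chr8:81771001-81772000, an intron) the levels were 98.6% and 98.0% in B cells and 1.67% and 0% in T cells. Tox, which encodes an HMG box factor of T cell development, held a tile at chr4:6980001-6981000 with 97.2% and 98.9% in B cells and 1.11% and 1.14% in T cells. Chchd3, which encodes a mitochondrial inner membrane protein, held 1 in an intron (chr6:33056001-33057000) with 98.8% and 96.9% in B cells and 0.935% and 1.01% in T cells.

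To see how the members sat in gene sets, 10 lists of genes were counted over their bodies with 5 kb on either side. Of all tested tiles 0.117% were members, and this is the background for the counts. All 8 genes of the T cell receptor and CD3 list held members, 51 of 195 tested tiles (26.2%). Transcription factors of the T lineage had members at 11 of 16 genes, 121 of 1502 tiles (8.06%). Coreceptor, costimulation and adhesion genes had them at 11 of 18 genes and 34 of 508 tiles (6.69%), signalling genes at 16 of 20 genes and 88 of 1721 tiles (5.11%), and homing and cytokine receptors of naive T cells at 10 of 13 genes and 20 of 442 tiles (4.52%). Together these 5 lists held 314 members at 56 of 75 genes, which is 17.9% of all members, so most members lay elsewhere. All the lists were chosen with earlier results of these data known, so their shares are a description and no independent support. Inpp4b was put in its list for that reason, and without it the signalling list had 80 members in 1412 tiles (5.67%) and the 5 lists 306. CD4 was used to sort the T cells, and its gene had 2 members. Cd8b1, a coreceptor gene of the CD8 lineage that the sort removed, had 2, and Cd8a, the gene of the other CD8 chain, had 0 in 16 tested tiles.

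The other 5 lists held 9 members between them. No member was found in 270 tiles of effector, regulatory and natural killer genes (upper limit of the 95% Wilson interval 1.40%) or in 247 tiles of erythroid genes (upper limit 1.53%). The share over all tested tiles, 0.117%, lies below both limits, so these lists are not set apart from it. Myeloid genes had 2 in 319 tiles (0.627%), at Spi1 and Fcgr3, and housekeeping genes 2 in 229 (0.873%), both at Ywhaz. The B lineage list had 5 in 1321 tiles (0.379%), all at Bach2, a transcriptional repressor that T cells use as well. It also held 14 tiles of the opposite set. The myeloid, housekeeping and B lineage shares were above 0.117% but rest on few members. Since tiles of a gene are neighbours, the intervals cover counting error only.

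**Figure D4:**
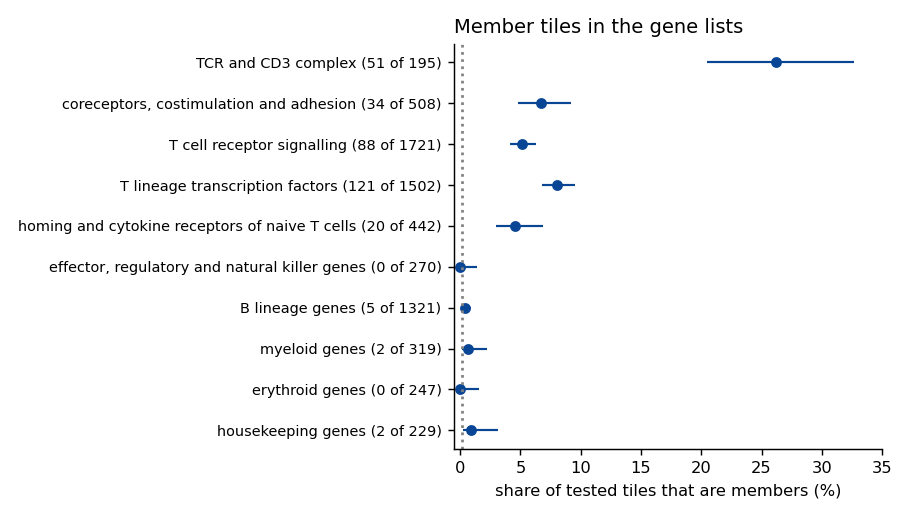
Share of tested tiles that are members (x axis, percent) in each of 10 gene lists (y axis, members of tested tiles in parentheses); points are shares, lines are 95% Wilson intervals, and the dotted line is the share over all tested tiles, 0.117%. The 5 T cell lists lie between 4.52% and 26.2%, the other 5 between 0% and 0.873%. The lists were chosen with earlier results of these data known.

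By position, the members were mostly intronic. Introns of protein-coding genes held 964 members, 54.8% (95% Wilson interval 52.5 to 57.1%), against 34.3% of all tested tiles and 43.2% of the opposite set. Tiles that touched an exon and were not within 1 kb of a gene start made up 16.3% of members and 12.8% of all tested tiles, and with the tiles near starts included exons were touched by 18.8% and 14.4%. Intergenic tiles made up 19.8% of members and 43.8% of all tested tiles. For 66 members, 3.75%, the centre of the tile lay within 1 kb of the start of a protein-coding gene, a share of 2.26% among all tested tiles and 2.07% in the opposite set. With the start of every annotated transcript the share was 9.15% of members (161 tiles), 5.47% of all tested tiles and 7.10% of the opposite set.

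The median distance from a member to the nearest protein-coding gene start was 24024 bp, with quartiles of 8098 and 59674 bp. It was 51940 bp for all tested tiles and 33615 bp for the opposite set. Distances of 5 to 20 kb were the most frequent class, with 28.8% of members and 19.4% of all tested tiles, and distances over 200 kb held 5.17% and 20.6%. Where a member lay within 10 kb of a start, as 510 did, it was on the transcribed side in 76.3% of cases, against 53.4% of all tested tiles and 49 of 70 tiles of the opposite set within that distance. Counting the starts of every annotated transcript instead of 1 per gene moved the median to 10326 bp, and to 28886 bp for all tested tiles.

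**Figure D5:**
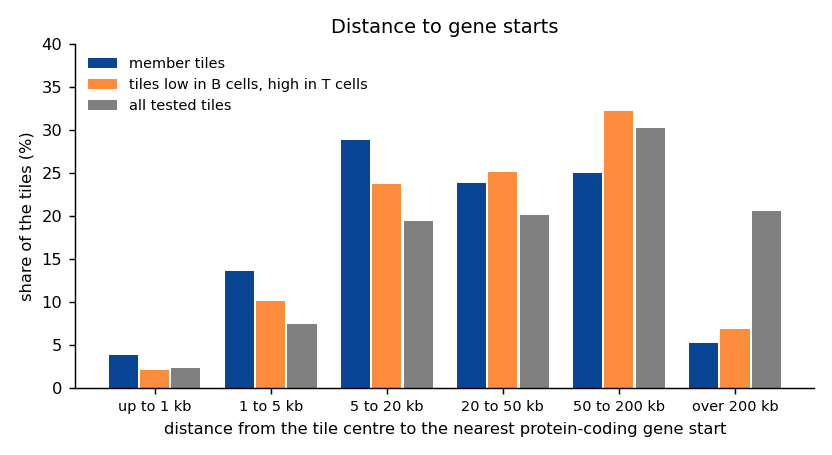
Share of tiles (y axis, percent) by distance from the tile centre to the nearest protein-coding gene start (x axis, classes) for the 1759 members, the 338 tiles with the opposite pattern and all 1497668 tested tiles. Members are most frequent at 5 to 20 kb (28.8%) and have 5.17% of tiles beyond 200 kb, where all tested tiles have 20.6%.

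The starts of the genes that carried members were under 25% in B cells too in most cases. The tile holding the start was tested for 961 of the assigned genes, and for 701 of them (72.9%) it lay under 25% in all 4 libraries, against 64.1% of all protein-coding genes. It was itself a member for 39 genes (4.06%). Thus the start tile of Lef1 stood at 0.206% and 0% in B cells and at 0.140% and 0% in T cells, and that of Tcf7 at 2.96% and 4.09% in B cells and 0.419% and 0.403% in T cells. Other start tiles were methylated in B cells, with 71.9% and 75.8% at Cd247 against 1.49% and 1.28% in T cells, and that of Cd28 was methylated in all libraries, with 94.1% and 92.8% in B cells and 89.6% and 90.7% in T cells. Among the 73 tested genes of the 5 T cell lists the start tile lay under 25% in all 4 libraries for 38 (52.1%). It was a member for 11 (15.1%), against 0.244% of all protein-coding genes.

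Members within 1 kb of the start of a listed gene were found at Zap70, Cd247, Trbc1, Trbc2, Cd4, Cd3g, Cd3d, Cd3e, Themis, Skap1, Trac, Trat1 and Cd5. Every gene of the receptor and CD3 list was among them. The Cd3e tile, over the gene of the epsilon chain (chr9:45009001-45010000, 20 CpGs), stood at 89.8% and 91.3% in B cells and at 0% and 0.381% in T cells. The Cd247 tile (chr1:165789001-165790000, 28 CpGs) stood at 93.5% and 91.5% in B cells and at 0% and 0.176% in T cells. The Cd4 tile (chr6:124887001-124888000, 5 CpGs) stood at 87.1% and 88.0% in B cells and at 5.00% and 0% in T cells. Differences were smaller at the tile that holds the start of Zap70, which encodes the kinase that binds the receptor chains (chr1:36761001-36762000, 21 CpGs). This tile stood at 77.6% and 82.5% in B cells and at 13.0% and 10.2% in T cells.

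At the other end, 5 members lay farthest from any protein-coding gene start. The farthest was 840110 bp from the nearest start, that of the proto-oncogene Myc (chr15:62825001-62826000), and stood at 89.1% and 87.7% in B cells and 0% and 0.855% in T cells. An exonic tile of Sox5 followed at 760476 bp (chr6:144021001-144022000) with 89.7% and 89.3% in B cells and 10.8% and 10.3% in T cells. The others were assigned to Zfp608, 4930412O13Rik and Magi2, and were between 581623 and 688946 bp away. The distance names the nearest start and does not link the tile to that gene.

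Chromosomes differed in their share of members. Per 10000 tested tiles there were 20.4 members on chromosome 11, which carries Tcf7, Ikzf1 and Skap1, 16.7 on chromosome 15 and 16.6 on chromosome 9, and at the low end 6.98 on chromosome 13.

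In base composition the members were close to other tiles. Their median GC content was 45.0%, against 43.8% for all tested tiles, and the ratio of observed to expected CpGs had a median of 0.213 against 0.204. A GC content over 50% with a CpG ratio over 0.6, as in CpG islands, was found in 1 member (0.0569%) and in 1.02% of all tested tiles. Tiles with more than 50% repeat sequence, as marked in the RefSeq assembly, made up 3.30% of members and 15.8% of all tested tiles.

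Sequence motifs of lymphocyte factors, chosen with earlier results of these data known, were counted on both strands of each tile, as letters only. The motif of T cell factor 1 and Lef1, CTTTGA, was present in 64.7% of members, 53.9% of all tested tiles and 53.0% of the opposite set. The Runx motif TGTGGT was present in 66.3%, 54.5% and 54.4%, and the Ets motif CAGGAA in 71.3%, 67.3% and 69.8%. AGATAA, bound by Gata factors, was present in 50.9% of members and 46.2% of all tested tiles. CCCNNGGG, the core of the Ebf site, was present in 17.0% of members, 18.2% of all tested tiles and 47.3% of the opposite set, and the octamer ATGCAAAT in 4.09%, 7.19% and 12.1%. The E protein motif CAGCTG was present in 41.7%, 35.7% and 57.4%. Among tiles with a GC content between 41.8% and 48.1%, the quartiles of the members, CTTTGA was present in 65.1% of members against 52.8% of all tested tiles and TGTGGT in 65.9% against 56.8%. None of the motifs contains another, short motifs turn up by chance in tiles of this length, and a match is not a bound site. Among the windows printed above, CTTTGA was found once in that of Grap2 and CAGGAA once in that of Tcf7.

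The choice of members did not use the sex of the mice, except that its thresholds keep a difference between females and males within a cell type to 25 points at most. The median absolute difference between male and female libraries was 2.35 points in T cells and 2.46 in B cells at the members, against 2.41 and 2.36 at all tested tiles. In T cells 47.7% of members were higher in males and in B cells 51.2%. With edgeR's quasi-likelihood test on methylated and unmethylated reads, adjusted by Benjamini-Hochberg over all autosomal tiles, 114 of 1497668 tiles (0.00761%) differed between females and males, and 0 of the 1759 members did. At an unadjusted p under 0.05 there were 85 members, 4.83%, the same share as among all tested tiles (4.83%). The smallest p among the members was at Rab3ip (chr10:116914001-116915000), with 1.28% in female and 5.6% in male T cells, 98.0% and 99.3% in B cells, and an edgeR adjusted p of 0.421.

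Whether B minus T differed between females and males was tested with a crossed term in place of the sex term, since both terms together leave no residual degree of freedom over 4 libraries. The crossed contrast called 70 tiles (0.00467%), of which 0 were members, and 84 members (4.78%) against 4.58% of all tested tiles had an unadjusted p under 0.05. The member with the smallest p was in Ripor2 (chr13:24547001-24548000), at 95.4% and 10.4% in female B and T cells and 87.4% and 20.1% in male B and T cells, with an edgeR adjusted p of 0.694. With limma on log2 ratios of the reads, 0 members were called in either contrast, and 246 members (14.0%) for sex and 262 (14.9%) for the crossed contrast had an unadjusted p under 0.05, against 5.49% and 5.30% of all tested tiles. With 1 library per group, the absence of a call does not show that the sexes were alike.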

How the data were processed

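WGoxBS was done on sorted spleen cells of pooled mice. The submitters' processing notes name Trim Galore, FastQC, Bismark 0.13.1 and the build mm10; how reads were filtered is not given in the sources used here. The authors deposited 1 table per group, 4 for 8 samples, with each CpG's position, its methylation level as a fraction and its read count. Fractions were rounded up to 3 decimals, and methylated reads were recovered as whole numbers (100% of levels matched). Every listed CpG had at least 5 reads, so that the minimum of 20 reads per tile left out no tile with 5 CpGs. The number of per-sample columns without a group was 0.

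CpGs listed in all 4 tables were summed in 1-kb tiles (Python 3.11.15, numpy 2.4.6). Positions, which count from 0 in the tables, are given from 1. All listed autosomal positions lay on a CG of GRCm38. Gene models were those of GENCODE M21, and T cell receptor segments counted as protein-coding. A tile was called promoter when its centre lay within 1 kb of a gene start, then exon, intron, noncoding gene or intergenic, in this order. Intervals are 95% Wilson intervals. Sex was tested with edgeR 4.0.16 (R 4.3.3), with terms for library, methylation and cell type, on all tested autosomal tiles, with calls at an adjusted p under 0.05, and with limma 3.58.1 as an alternative. On simulated tiles with a known change, a larger share of the edgeR calls was false than the adjusted p allows. Counts of calls over all tiles may therefore be too high. How often the fit would find differences as small as those between the sexes at the members was not tested.

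The members, the gene lists, the motifs and the rule for named genes were chosen with earlier results of these data known, and Inpp4b was put in its list for that reason. Genes named, apart from some items that are not reported here, are the 20 with the most members, those of the longest stretches and of the 10 largest differences, listed genes with a member within 1 kb of their start, members and other tiles nearest the thresholds, and the 5 members farthest from a start. The Tcf7 stretch, the Cd3g and Cd3d stretch, the Kcnn4, Bach2, Spi1, Fcgr3 and Ywhaz tiles and the members with the smallest p were added after their values were seen.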

Additional observations from a re-analysis of the deposited data

How the results depend on the processing

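The number of members depended on the thresholds and the CpG minimum. With thresholds of 20% and 80% there were 1030 members in 853 stretches, with 30% and 70% there were 2970 in 2468, and with a minimum of 10 CpGs 921 in 808. The share within 1 kb of a gene start was 4.95%, 2.79% and 4.02%, and the share in the 5 T cell gene lists 23.8%, 13.9% and 20.5% under these settings. Counting the start of every transcript moved the share within 1 kb to 9.15% and the median distance to 10326 bp. Leaving Inpp4b out of the lists, an alternative chosen after the data were seen, gave a share in the lists of 17.4%. The cause of these shifts was not tested beyond the construction of the settings.

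Leaving 1 library out of the rule gave 1917 to 2167 members, 1589 to 1818 stretches, 3.23% to 3.60% within 1 kb of a start, 53.9% to 54.8% in introns, 15.8% to 17.1% in the T cell lists and median distances of 23789 to 24763 bp. The share in introns stayed within its interval, 52.5% to 57.1%, under every setting tried. Moving the tile borders by 500 bases gave 1765 members, which overlapped 58.8% of the original ones. With unweighted means of the CpG levels, 82.1% of the original members were kept. No member was called for sex or for the crossed contrast under the alternatives that kept all 4 libraries (0 in each). With 1 library left out the sex fit had no term for cell type, so the difference that chose the members entered its residual, and its 0 calls say nothing about sex at them. The crossed contrast could not be fitted without a library.

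No paired analysis was possible because the groups share no replicate numbers and each has 1 table. With 1 library per group, the spread between mice is unknown.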

Other observations

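Some members were assigned to genes outside the T cell lists, among them genes known from other blood lineages. The B lineage gene Bach2 was given 6 members, of which 5 touched its body. Among them was 1 in an intron at chr4:32291001-32292000 with 85.9% and 85.1% in female and male B cells and 8.25% and 5.28% in female and male T cells. The myeloid factor gene Spi1, which B cells also use, held 1 member in an intron (chr2:91088001-91089000), with 93.9% and 95.3% in B cells and 6.70% and 16.8% in T cells. The Fc receptor gene Fcgr3 held 1 (chr1:171060001-171061000) with 81.4% and 78.4% in B cells and 21.3% and 16.0% in T cells. Of the 2 members at Ywhaz, a gene of the housekeeping list that encodes an adaptor protein of the cytosol, that at chr15:36787001-36788000 stood at 86.7% and 87.8% in B cells and at 10.3% and 10.1% in T cells.

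A tile of Ly86 (chr13:37306001-37307000) had the largest spread between the T cell libraries among the 3 members with the smallest p for sex, 5.91% in females and 24.1% in males, at 93.5% and 94.2% in female and male B cells. Its edgeR adjusted p was 0.55.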
